A study of Mus musculus with 6 samples.

Results

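The genes described here are the protein-coding neighbours of Cxcr2 on mouse chromosome 1. They were chosen by position: all protein-coding genes that start between 66 and 82 Mb on chromosome 1 in the deposited tables (genome build mm10), apart from Cxcr2 itself and 13 others set aside by name. The interval lists 92 protein-coding genes, of which 78 remained, among 25805 listed genes in all. The rule uses position, gene type and name, and names no expression value. The members were, however, chosen with earlier results of these data known, so the choice was not blind to them. RNA sequencing was performed on kidney tissue of mice after ischaemia-reperfusion injury (IRI), in which the blood supply of the kidney is interrupted and then restored. The 6 libraries form 2 groups of 3, wild type with IRI and CXCR2 knockout with IRI. All 6 kidneys were thus injured, wild type included, and uninjured kidney was not analysed here. The labels give neither strain, age, sex and time after injury nor the way the knockout was made. They also leave unsaid whether the libraries are from different animals, so the p-values cover the spread among these libraries alone, some or all of it possibly technical.

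Cxcr2 encodes the receptor through which neutrophils respond to chemokines such as Cxcl1 and Cxcl2. Genes close together on a chromosome are inherited together, so mice bred for an altered Cxcr2 allele also carry the DNA around it from the strain in which the allele arose. This neighbourhood is rich in genes with known roles in the kidney and in tissue injury: Ihh (a hedgehog ligand), Vil1 (a brush-border protein), Atg9a and Retreg2 (autophagy), Cul3 (a ubiquitin ligase scaffold), Igfbp5 (an insulin-like growth factor binding protein) and Xrcc5 (DNA repair). In these libraries an effect of the knockout and one of neighbouring DNA cannot be told apart, since both would come with the same label.

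The label was first checked on Cxcr2 itself, whose transcript did not fall in the group labelled knockout. Values are given in the order of libraries 1 to 3 throughout, as normalized counts, meaning reads divided by a size factor for each library. Cxcr2 stood at 15.9, 88.8 and 56.9 in wild type and at 98.0, 36.8 and 56.6 in labelled knockout. The groups overlapped (log2 fold change 0.43, SE 0.64, limma adjusted p = 0.841). Each value sums reads across the entire gene, while the labels leave the deleted part unnamed, so reads from outside that part check nothing. "Labelled knockout" is used for this group in all that follows.

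Recovered reads ran from 15518083 to 20356601 per library. The labelled tissue was checked on 9 proximal tubule markers, which summed to 46615 or more in each library, and none was at 0 throughout. Labelled-knockout library 1 stood apart, with a summed level of 8 fat cell markers of 55725 normalized counts against 320 to 3238 in the other 5 libraries. Its neutrophil markers summed to 4456, against at most 1293 elsewhere, and its erythrocyte markers to 13550, against at most 2973. Its 6 tubular injury markers had the lowest sum, 106268 against 359658 to 668636 elsewhere. The part of these differences in the members' values in that library was not tested. Labelled-knockout library 3 had the highest interferon-stimulated genes, 11212 against at most 2368 elsewhere. All 8 fibroblast and smooth muscle markers had lower means in the labelled knockouts, with sums of 5454 to 14879 in wild type and 1674 to 4209 in labelled knockout. In bulk tissue, fewer cells of a type and less RNA per cell cannot be told apart.

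The upstream sequence is shown for 3 members that span the behaviours described below, Ihh, Tns1 and Speg. Ihh is the member with the smallest p among those with at least 20 normalized counts. Tns1 is a close neighbour of Cxcr2 at a high level, and the values of Speg were lower in all labelled knockouts. Each sequence is the 250 bases before the gene's start in RefSeq (GRCm38.p6, the build that mm10 names), written 5′ to 3′ on the gene's own strand. Capitals mark the GC box, GGGCGG on either strand, a motif bound by Sp1-family factors. The stretches lie at chr1:74951673-74951922 on the minus strand for Ihh, chr1:74124549-74124798 on the minus strand for Tns1 and chr1:75375047-75375296 on the plus strand for Speg. None of the 3 overlaps an annotated exon.
Ihh: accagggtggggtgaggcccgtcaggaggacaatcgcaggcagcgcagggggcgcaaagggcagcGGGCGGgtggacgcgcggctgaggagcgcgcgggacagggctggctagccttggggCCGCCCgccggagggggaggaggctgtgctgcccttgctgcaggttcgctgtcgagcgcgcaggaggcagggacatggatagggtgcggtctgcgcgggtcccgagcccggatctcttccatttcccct
Tns1: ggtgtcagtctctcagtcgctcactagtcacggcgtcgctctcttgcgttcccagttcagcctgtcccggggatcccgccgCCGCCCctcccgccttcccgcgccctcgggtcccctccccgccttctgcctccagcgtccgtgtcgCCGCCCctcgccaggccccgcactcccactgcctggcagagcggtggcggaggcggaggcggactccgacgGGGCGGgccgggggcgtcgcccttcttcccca
Speg: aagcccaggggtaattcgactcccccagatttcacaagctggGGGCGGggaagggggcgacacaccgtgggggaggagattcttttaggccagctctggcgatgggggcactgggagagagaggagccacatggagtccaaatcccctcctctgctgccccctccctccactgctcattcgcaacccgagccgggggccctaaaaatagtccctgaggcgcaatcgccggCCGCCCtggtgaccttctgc
A shorter stretch is shown for Retreg2, because it lies between the starts of Retreg2 and of its neighbour Cnppd1, a pair that will be described together. Capitals here mark CACGTG, the E-box that bHLH factors such as TFEB and USF recognise. The stretch spans 30 bases at chr1:75142714-75142743 on the plus strand.
Retreg2: gtCACGTGgcatcgcgcttcatCACGTGac
The GC box was found in the 250 bases before 55.6% of the 72 members with a RefSeq promoter entry, and in 32.9% of such windows over all 27025 genes of the table, coding or not. CACGTG was found in 13.9% of the members' windows and in 6.05% of all. CCAAT was found in 31.9% and 34.5%, and TATAAA in 4.17% and 13.0%. Both strands were searched, and each motif was counted without regard to the others. The median G+C content was 60.4% in the members' windows and 52.0% in all. These are matches of letters, and the data hold no measurement of binding at them.

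Against this background, the comparison asked whether the neighbours of Cxcr2 differed in level between the groups. With all 6 libraries, the members did so to about the same extent as the genome at large. This leaves out the genes set aside by name, which are given below. Of the 78 members, 72 had a mean normalized count of at least 1 and were tested with limma on log2(normalized count + 1). The median log2 fold change (labelled knockout against wild type) was 0.023, with 39 members higher and 33 lower, against -0.001 over all 21721 genes tested. The values of 53 members lay within 0.5 of 0, which was 73.6% of those tested and 65.2% of all genes. After Benjamini-Hochberg adjustment over all genes limma called 0 members, and it called 0.0046% of all genes, a single gene that is no member. At an unadjusted p under 0.05 there were 10 members, 13.9%, against 10.1% of all genes and 11.2% of protein-coding genes. These 10 comprised 4 with higher values (Ihh, Retreg2, Zfp142 and Cnppd1), where 3.94% of all genes were higher, and 6 with lower ones (March4, Ptprn, Tuba4a, Kcne4, Bard1 and Wnt10a), where 6.14% were lower. The quasi-likelihood test of edgeR on recovered reads called 0 of 67 members and 0.00628% of all genes. At an unadjusted p under 0.05 it had 6 members, 8.96%, and 11.7% of all genes. DESeq2 called 1 of 67, Ihh, which is 1.49% of the members against 1.95% of all genes. At an unadjusted p under 0.05 it had 10 members, 14.9%, and 12.7% of all genes.

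Counting only whether the 3 values of each group were fully separated gave the same picture. The groups did not overlap for 14 members, 19.4%, of which 7 were higher and 7 lower in the labelled knockouts. Over all genes the share was 17.7% (8.27% higher and 9.43% lower), over protein-coding genes 19.2% and over protein-coding genes elsewhere on chromosome 1 17.3%. The shares leave out the 14 genes of the interval that the rule sets aside by name, and 5 of those had separated groups: Wdfy1 (log2 fold change 1.34) and Slc23a3 (1.08) higher, Des (-1.76), Rpl37a (-0.80) and Erbb4 (-0.66) lower. None of the 14 passed limma, and DESeq2 called Wdfy1 and Des. The 6 members under the filter, Unc80, Spag16, Cdk5r2, Asic4, Scg2 and Fam124b, had at most 2 reads in any library. Most of them are known from neurons or testis.

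**Figure D1:**
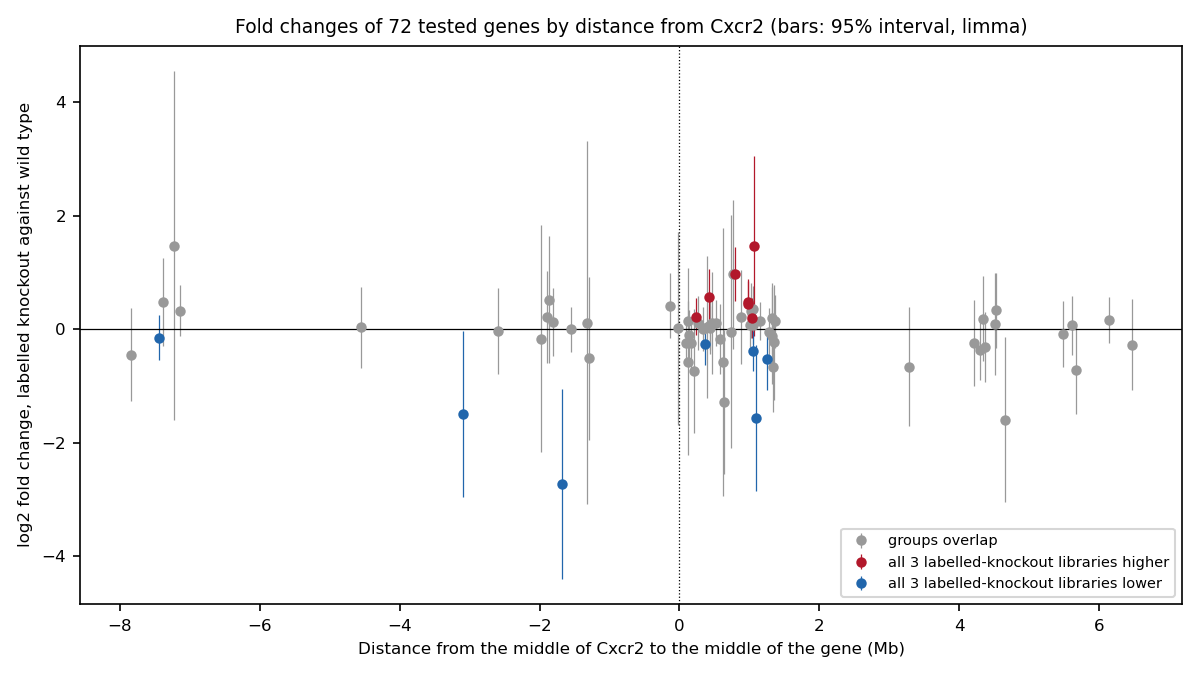
Log2 fold change of each of the 72 tested members (y axis, labelled knockout against wild type, with its 95% interval from limma) by distance from the middle of Cxcr2 in Mb (x axis). Members whose groups do not overlap are coloured, 7 higher and 7 lower, and most intervals include 0 at every distance.

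By distance, 11 of the 14 separated members lay within 1.5 Mb of Cxcr2. Within 0.5 Mb the groups did not overlap for 3 of 17 members (17.6%) and between 0.5 and 1.5 Mb for 8 of 28 (28.6%), beside 17.7% of all genes and 19.2% of protein-coding genes. Between 1.5 and 4 Mb they did not overlap for 2 of 9 (22.2%), and beyond 4 Mb for 1 of 18 (5.56%). The medians of the 4 bins were 0.016, 0.095, -0.027 and -0.031, with members of both signs in each. Whether these shares differ with distance was not tested. The separated member beyond 4 Mb was Rpe, a pentose phosphate epimerase, and its difference was small (-0.15).

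The closest neighbours showed no common direction. Tns1 encodes tensin 1, which links integrin adhesions to actin, and its gene is separated from Cxcr2 by Rufy4 alone. It stood at 12861, 17817 and 20560 in wild type and 29594, 20536 and 18387 in labelled knockout. The highest value was that of labelled-knockout library 1, and the groups overlapped (log2 fold change 0.42, SE 0.25, limma adjusted p = 0.595), with 0.21 without that library. Rufy4, an adaptor of late endosomes that lies next to Cxcr2, stood at 19.2, 47.2 and 39.8 in wild type and 108, 27.1 and 12.3 in labelled knockout. Its highest and lowest values both came from labelled knockouts, and its log2 fold change was 0.014 (SE 0.75). Gpbar1, the membrane receptor for bile acids, ran from 17.6 to 21.6 in wild type but from 3.34 to 31.9 in labelled knockout. Aamp, a WD-repeat protein, had a log2 fold change of 0.15 (SE 0.15), and Pnkd, named for the movement disorder its human gene causes, one of -0.24 (SE 0.20). Tmbim1, a protein of lysosome and Golgi membranes nested in Pnkd on the opposite strand, had one of -0.096 (SE 0.19). Catip, a ciliogenesis protein with 8 to 23 reads per library, had a log2 fold change of -0.74 (SE 0.48). Its groups overlapped by the values of wild-type library 2 (11.1) and labelled-knockout library 1 (11.1).

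Ctdsp1, a phosphatase of the RNA polymerase II tail that also acts in silencing of neuronal genes, was the member within 0.3 Mb of Cxcr2 whose groups did not overlap. It stood at 2773, 2444 and 2495 in wild type and 3030, 2974 and 2980 in labelled knockout. The labelled knockouts lay close together, all above the highest wild-type library. The difference was a log2 fold change of 0.22 (SE 0.14, 95% interval -0.10 to 0.55, limma adjusted p = 0.614).

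Among secreted signals, receptors and their regulators, 10 of the 12 tested members had negative log2 fold changes, and the median was -0.58. None passed limma, and 4 were at an unadjusted p under 0.05, Ihh above wild type and 3 below it, beside 10.1% of all genes (3.94% higher and 6.14% lower). Ihh encodes Indian hedgehog, a ligand that in the kidney is made by the proximal tubule and signals to interstitial cells. Its gene (ENSMUSG00000006538) spans 74945315 to 74951672 on chromosome 1, 0.79 Mb from Cxcr2, and its upstream sequence is the GC-rich stretch printed first above. It stood at 797, 494 and 794 normalized counts in wild type and 1284, 1414 and 1322 in labelled knockout. Every labelled knockout was well above every wild-type library. The means were 695 ± 174 and 1340 ± 66.4 (SD, n = 3), a 1.97-fold difference and a log2 fold change of 0.98 (SE 0.21, 95% interval 0.50 to 1.46). Its limma adjusted p was 0.369, that of edgeR 0.358 and that of DESeq2 0.0196, so Ihh passed with DESeq2 alone among the 3 tools. With each library left out in turn, its log2 fold change stayed between 0.75 and 1.09. Beside it, the summed level of 9 proximal tubule markers was 46615 to 85652 in wild type and 58915 to 154014 in labelled knockout, with 8 of 9 higher. The median log2 fold change of these 9 markers was 0.81, and the ranges of their sums overlapped. The part of tubule content in the value of Ihh was not tested.

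The signalling genes with lower values were mostly low in level. Ptprn encodes the dense-core vesicle protein IA-2 of neuroendocrine cells. It stood at 130, 184 and 165 in wild type and 18.9, 84.2 and 89.5 in labelled knockout. Every labelled knockout was below every wild-type library, and library 1 was lowest by far. This gave -1.57 on the log2 scale (SE 0.56, limma adjusted p = 0.435), and -0.85 without labelled-knockout library 1. Kcne4, a regulatory subunit of voltage-gated potassium channels, stood at 97.0, 92.5 and 50.1 in wild type and 66.8, 21.3 and 10.3 in labelled knockout. Here the groups overlapped through labelled-knockout library 1, and the difference of -1.59 on the log2 scale (SE 0.64, limma adjusted p = 0.467) was -2.29 without that library and -0.997 without library 3. Wnt10a, a Wnt ligand, stood at 76.9, 45.3 and 69.4 against 46.8, 31.9 and 10.3, overlapping between wild-type library 2 and labelled-knockout library 1 (log2 fold change -1.28, SE 0.56).

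Epha4, an ephrin receptor, and Serpine2, a secreted inhibitor of thrombin and urokinase, had values of the same kind. Epha4 stood at 79.4, 87.9 and 43.2 in wild type and 47.9, 62.9 and 24.7 in labelled knockout (-0.66 on the log2 scale, SE 0.46). Serpine2 stood at 566, 848 and 424 against 546, 350 and 242 (-0.71, SE 0.34). In Kcne4, Epha4, Serpine2 and Wnt10a labelled-knockout library 3 was the lowest of all 6. That library also had the lowest sums of the 8 fibroblast and smooth muscle markers (1674) and of the 6 endothelial markers (3383, with 7731 to 13382 in wild type). Whether stromal or vessel content has a part in these values was not tested. Igfbp5, at the highest level of these genes, spread widely in both groups, with 5406, 2913 and 1824 in wild type and 2572, 4158 and 922 in labelled knockout (-0.51 on the log2 scale, SE 0.61, and 0.095 without labelled-knockout library 3). Its neighbour Igfbp2, another binding protein for insulin-like growth factors, ran from 3.70 to 124 in wild type and from 5.15 to 75.5 in labelled knockout. Inha, the inhibin alpha subunit, and Wnt6, another Wnt ligand, overlapped between groups (log2 fold changes -0.23 and -0.58).

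**Figure D2:**
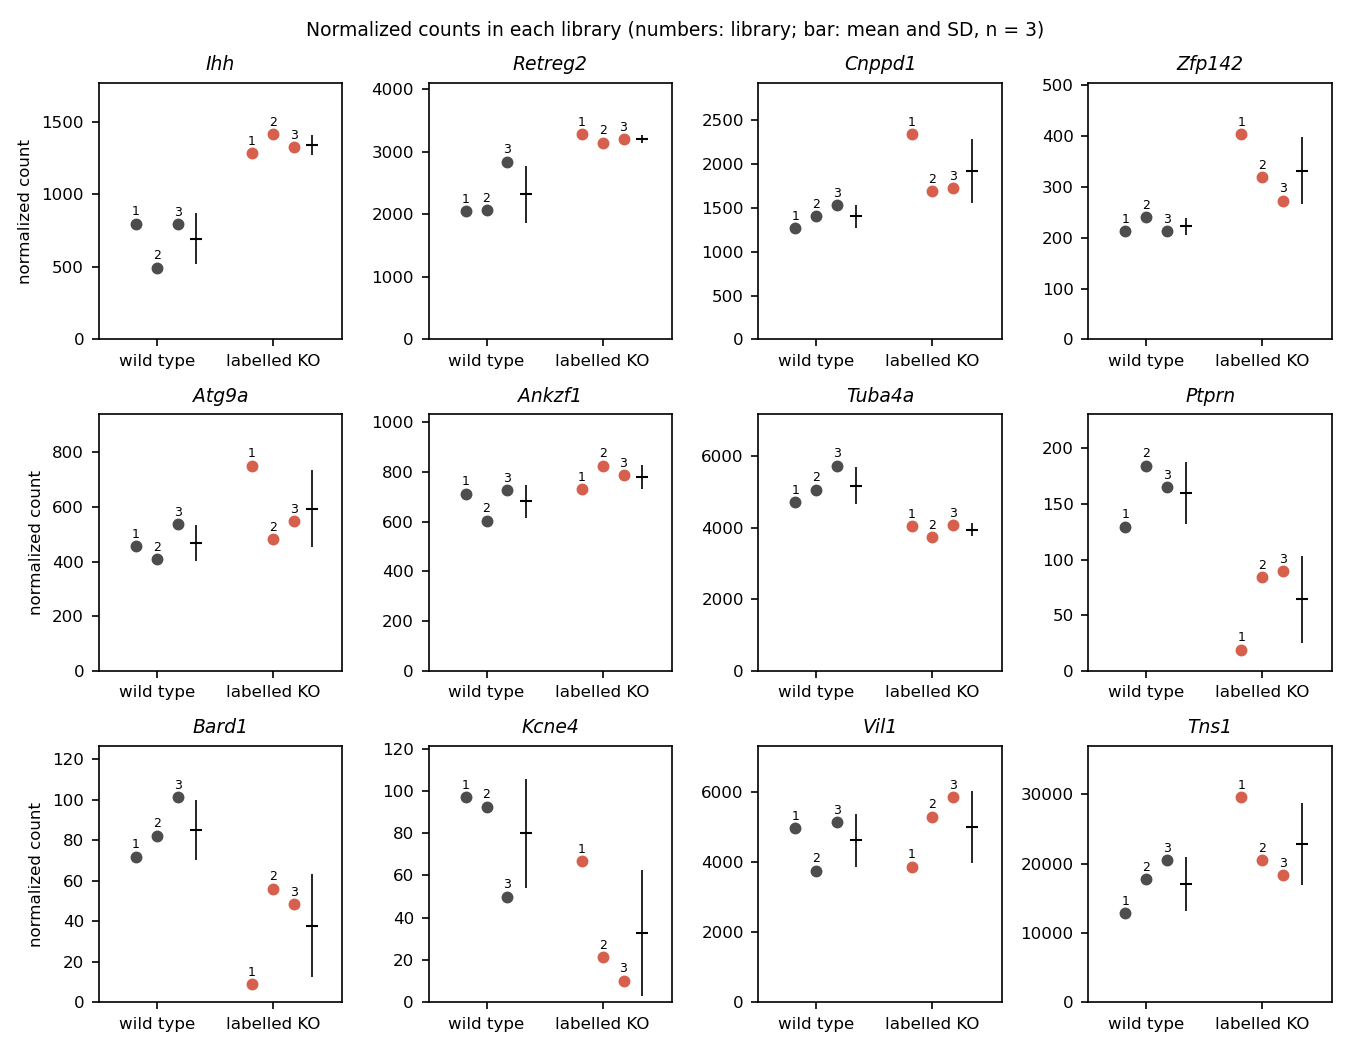
Normalized counts (y axes from 0) of 12 members in each wild-type and labelled-knockout (labelled KO) library, numbered 1 to 3, with the mean and SD of each group at the side. Ihh, Retreg2, Cnppd1, Zfp142 and Ankzf1 are higher and Tuba4a, Ptprn and Bard1 lower in all 3 labelled knockouts, while Atg9a, Kcne4, Vil1 and Tns1 overlap.

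The 14 tested genes of the cytoskeleton, cilium and brush border had a median log2 fold change of -0.20, with 6 higher and 8 lower. None passed limma, and 1 was at an unadjusted p under 0.05, beside 10.1% of all genes. Per kilobase of transcript, this group held the most abundant members. Arpc2, a core subunit of the ARP2/3 complex that nucleates branched actin, averaged 2491 normalized counts per kb in wild type and 2124 in labelled knockout. Tuba4a, an alpha tubulin, averaged 1396 and 1066 per kb, and Vil1, the villin that bundles actin in microvilli, 1300 and 1410.

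Tuba4a was the member of this group with the smallest p. It stood at 4710, 5065 and 5729 in wild type and 4036, 3733 and 4062 in labelled knockout. The groups did not overlap, and the log2 fold change of -0.39 (SE 0.15, 95% interval -0.74 to -0.037, limma adjusted p = 0.463) kept its sign in all 13 alternatives. Tuba4a shares 1379 bases with the oppositely directed Stk16, and whether counting used the strand is not known, so its count is uncertain. Stk16, a kinase of the Golgi, had a log2 fold change of 0.068.

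Speg, a kinase of striated muscle also expressed in vascular smooth muscle, stood at 413, 426 and 406 in wild type and 352, 328 and 206 in labelled knockout. Wild type varied little here (a coefficient of variation of 2.38%), and every labelled knockout was lower. This gave -0.53 on the log2 scale (SE 0.24, limma adjusted p = 0.503) and -0.29 without labelled-knockout library 3. The 8 fibroblast and smooth muscle markers summed to 4209, 4102 and 1674 in labelled knockout and to 5454 or more in wild type. The part of such cells in the values of Speg was not tested. Obsl1, an adaptor related to the muscle protein obscurin, was also tight in wild type (191, 179 and 185). In labelled knockout it stood at 74.6, 191 and 112, so library 2 reached the wild-type level (log2 fold change -0.66, SE 0.35, and -0.34 without library 1).

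The brush-border and actin genes of high level moved little. Vil1 stood at 4961, 3758 and 5132 in wild type and 3874, 5294 and 5849 in labelled knockout. Its range in each group covered most of the other's, and its log2 fold change of 0.11 (SE 0.21) changed sign when wild-type library 2 or labelled-knockout library 3 was left out. Arpc2 stood at 4733, 5494 and 4964 against 3854, 4154 and 4947, a log2 fold change of -0.23 (SE 0.16) that stayed negative with each library left out. Cfap65, a protein of motile cilia and sperm tails, was spread most in the labelled knockouts, at 27.8, 77.5 and 148 against 28.7 to 45.5 in wild type (0.97, SE 0.58). Map2, a microtubule-associated protein, had a log2 fold change of -0.45 (SE 0.36), Dock10, an activator of small GTPases, one of -0.27 (SE 0.35), and Ttll4, a tubulin glutamylase, one of 0.11 (SE 0.18). Stk36, a kinase of motile cilia, and Mreg, a melanosome transport protein, had values of 0.11 and -0.17. Myl1, a myosin light chain of fast muscle, stood at 36.8 normalized counts in labelled-knockout library 1 and at most 4.18 elsewhere.

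**Figure D3:**
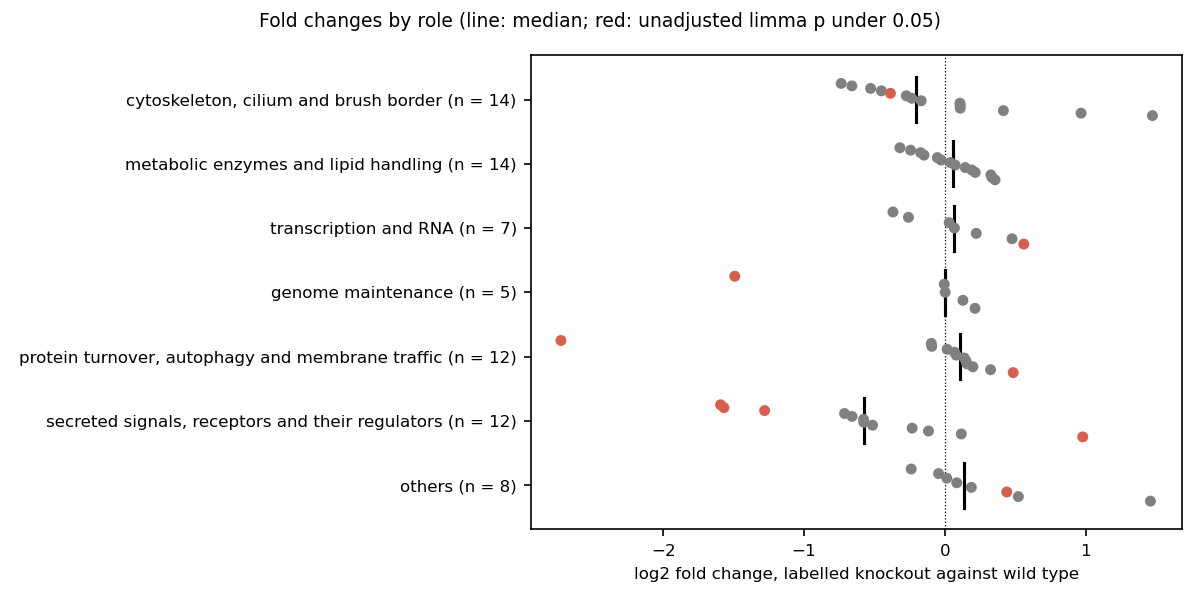
Log2 fold change (x axis, labelled knockout against wild type) of the tested members by role (y axis), 1 point per gene, with a line at the median. The signalling genes have the lowest median (-0.58), the lowest single point is March4 (-2.73) among the genes of protein turnover, and the 14 metabolic genes all lie within 0.5 of 0.

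The series is concerned with autophagy, and several neighbours of Cxcr2 act in autophagy, protein turnover or membrane traffic. Of 12 tested members of this kind, 9 had higher and 3 lower means in the labelled knockouts, with a median of 0.11. None passed limma, and 2, Retreg2 and March4, were at an unadjusted p under 0.05, beside 10.1% of all genes. Retreg2, also known as FAM134A, encodes a receptor of the endoplasmic reticulum that binds LC3 in ER-phagy. Its gene (ENSMUSG00000049339) spans 75142778 to 75147913. It stood at 2055, 2062 and 2842 in wild type and 3280, 3148 and 3199 in labelled knockout. The labelled knockouts were nearly level with one another and all above wild-type library 3, the highest of its group. The means were 2320 ± 452 and 3209 ± 66.9, a 1.40-fold difference and a log2 fold change of 0.48 (SE 0.17, 95% interval 0.091 to 0.88, limma adjusted p = 0.433). With each library left out it ran from 0.41 to 0.64.

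Atg9a encodes the lipid scramblase that seeds autophagosome membranes. It stood at 457, 410 and 538 in wild type and 751, 481 and 549 in labelled knockout. Only labelled-knockout library 1 was clearly above wild type, and the difference of 0.32 on the log2 scale (SE 0.21, limma adjusted p = 0.622) was 0.14 without it. Its divergent partner Ankzf1, which releases stalled peptides in ribosome quality control, stood at 712, 603 and 727 against 730, 824 and 786. These groups did not overlap, though by 3 counts at the closest point (0.20, SE 0.16, limma adjusted p = 0.687). Cul3, the scaffold of the ubiquitin ligases that turn over NRF2 and the WNK kinases, stood at 1698, 1838 and 1829 against 2521, 1762 and 1780. Its mean was higher through library 1 alone, and the log2 fold change of 0.16 was -0.013 without that library.

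March4, a membrane ubiquitin ligase, was at the edge of detection, with 6, 5 and 15 reads in wild type and 1, 0 and 0 in labelled knockout. Its fitted log2 fold change of -2.73 (limma adjusted p = 0.383) depends on the pseudocount and was -5.02 with a pseudocount of 0.1. The others stayed close to wild type: Zfand2b, a proteasome-associated protein, at 0.080 (SE 0.18), Rnf25, a ubiquitin ligase, at 0.016 (SE 0.17), Stk11ip, a binding partner of LKB1, at 0.14 (SE 0.21), and Ap1s3, a subunit of the AP-1 clathrin adaptor, at -0.093 (SE 0.26).

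All 14 metabolic genes had log2 fold changes within 0.5 of 0, with a median of 0.055, 8 higher and 6 lower, and none at an unadjusted p under 0.05. Glb1l, a relative of lysosomal beta-galactosidase, had the smallest p. It stood at 1313, 928 and 1080 in wild type and 1244, 1590 and 1396 in labelled knockout, with overlap between wild-type library 1 and labelled-knockout library 1 (log2 fold change 0.36, SE 0.18, limma adjusted p = 0.549). Lancl1, a glutathione-binding protein that protects from oxidative stress, had a value of 0.33 (SE 0.20), and Mogat1, which makes diacylglycerol from monoacylglycerol, one of -0.32 (SE 0.27). For Mogat1 the value was -0.027 without labelled-knockout library 1, where it stood at 855 against 1259 or more elsewhere. Rpe stood at 561, 445 and 458 in wild type and 434, 436 and 445 in labelled knockout. Its groups separated by less than 1 normalized count, and the log2 fold change was -0.15 (SE 0.17). The enzymes Pecr (peroxisomal fatty acid chain elongation, 0.22, SE 0.35), Acsl3 (activation of long-chain fatty acids, 0.33, SE 0.29), Atic (purine synthesis, -0.027, SE 0.33) and Bcs1l (assembly of respiratory complex III, 0.073, SE 0.23) overlapped between groups. Gmppa, which regulates GDP-mannose synthesis, and Dnpep, an aspartyl aminopeptidase, had values of -0.053 and 0.14. Prkag3, a muscle subunit of AMP-activated kinase, and Sgpp2, a sphingosine-1-phosphate phosphatase, had values of -0.17 and -0.24.

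The 7 tested genes of transcription and RNA had a median of 0.068, and for 3 of them the groups did not overlap, beside 17.7% of all genes and 19.2% of protein-coding genes. Besides Ctdsp1 these were Zfp142 and Cnot9. Zfp142, a zinc finger protein, stood at 213, 241 and 213 in wild type and 403, 319 and 273 in labelled knockout, and all 3 labelled knockouts were higher. The log2 fold change was 0.56 (SE 0.22, 95% interval 0.058 to 1.06, limma adjusted p = 0.458). Zfp142 shares 1608 bases with the oppositely directed Plcd4, a phospholipase C at 21.7 ± 8.23 normalized counts in wild type, so both counts are uncertain. Cnot9, a subunit of the CCR4-NOT deadenylase, stood at 711, 769 and 734 against 528, 678 and 655. It was lower in all labelled knockouts (-0.26, SE 0.16, limma adjusted p = 0.612) and lies within Usp37 on the opposite strand, a deubiquitinase whose own log2 fold change was 0.002. Farsb, a subunit of phenylalanyl-tRNA synthetase, had a value of -0.37 (SE 0.23) and of -0.13 without labelled-knockout library 1. Kansl1l, related to a chromatin regulator, stood at 541 in labelled-knockout library 1 but at 1076 and 1342 in the other labelled knockouts, against 538 to 856 in wild type (0.48, SE 0.34). Mrpl44, of the mitochondrial ribosome, and Ikzf2, the transcription factor Helios of regulatory T cells, had values of 0.068 and 0.031.

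Of the 5 genes of genome maintenance, Bard1, the partner of BRCA1, had lower values in every labelled knockout. It stood at 71.9, 82.3 and 101 in wild type and 8.91, 56.2 and 48.4 in labelled knockout. Library 1, with 8 reads, was far below the rest, and the difference of -1.49 on the log2 scale (SE 0.64, limma adjusted p = 0.488) was -0.68 without it. The remaining 4 lay near wild type. Xrcc5, the Ku80 subunit that binds broken DNA ends, stood at 939, 789 and 919 against 628, 1047 and 1352 (0.13, SE 0.27). Library 1 was the lowest and libraries 2 and 3 the highest of all 6, so that without library 1 the value was 0.43. Nhej1, which bridges DNA ends with the XRCC4 ligase complex, had a value of 0.21 (SE 0.36), Smarcal1, which remodels stalled replication forks, one of -0.004 (SE 0.18).

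Members in none of these groups were 9 genes, 8 of them tested, with a median of 0.14. Cnppd1, a cyclin-like membrane protein, stood at 1268, 1406 and 1526 in wild type and 2336, 1689 and 1720 in labelled knockout, without overlap (0.44, SE 0.18, 95% interval 0.035 to 0.84, limma adjusted p = 0.467). The unnamed gene A630095N17Rik also separated the groups, but on 0 to 2 reads in wild type and 3 to 6 in labelled knockout. BC035947 and Utp14b, a ribosome biogenesis factor, had values of 0.19 and 0.084, and their exons overlap Mogat1 and Acsl3.

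Genes that share a promoter region offer a second reading of position. In the interval 10 pairs of genes start within 1 kb of each other on opposite strands, 9 of them with both genes among the members. In 7 of these 9 the log2 fold changes had the same sign. The share for such pairs elsewhere in the genome was not determined, so this count has nothing to be set against. Several of the values were also smaller than their SE, such as those of Rnf25 (SE 0.17), Stk16 (SE 0.14) and Bcs1l (SE 0.23). Cnppd1 and Retreg2, whose starts lie 67 bases apart around the paired E-boxes printed above, had values of 0.44 and 0.48, and the groups were separated for both. Atg9a and Ankzf1, which overlap by 46 bases at their starts, had values of 0.32 and 0.20. Glb1l and Stk16 had 0.36 and 0.068, Zfp142 and Bcs1l 0.56 and 0.073, Pecr and Tmem169 0.22 and 0.52, Rnf25 and Stk36 0.016 and 0.11, and Obsl1 and Inha -0.66 and -0.23. The signs were opposite for Aamp and Pnkd and for Chpf, a chondroitin synthase subunit, and Tmem198 (0.19 and -0.12). Mrpl44 stood at 0.068 beside its partner outside the list, Wdfy1, at 1.34. Where the exons of partners overlap, reads of either may have been counted for the other.

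The partners of these members elsewhere in the genome were examined as lists, of which neither limma nor DESeq2 called a gene. Of 18 genes of the autophagy machinery that works with ATG9A, Atg9a included, 14 averaged higher and 4 lower (median 0.28 on the log2 scale), with 2 at an unadjusted p under 0.05, both higher, where 10.1% of all genes were (3.94% higher). The 3 of smallest p were Atg2a, the lipid transfer protein that ATG9A works with (0.55, SE 0.22), Wdr45, a phosphoinositide-binding partner of ATG2 (0.53, SE 0.21), and Pik3c3, the lipid kinase VPS34 (0.37, SE 0.17). Set against wild type, the list's median was 0.57 in the first labelled knockout but 0.038 and 0.13 in libraries 2 and 3. Of 11 insulin-like growth factors, receptors and binding proteins, 7 were higher and 4 lower (median 0.28), led by the receptor Igf1r (0.48, SE 0.16, limma adjusted p = 0.423), Igfbp4 (0.79, SE 0.36) and Igfbp7 (0.28, SE 0.16). Of 13 brush-border actin and ARP2/3 genes, 2 were higher and 11 lower (median -0.13), with Arpc1b at -0.66 (SE 0.20), the actin bundler Espn at 0.53 (SE 0.20) and Arpc3 at -0.37 (SE 0.18). The 8 genes of non-homologous end joining (median 0.13, 5 higher and 3 lower) and the 7 of the cullin-3 and NRF2 axis (0.12, 5 higher and 2 lower) had none at an unadjusted p under 0.05. The smallest p in them belonged to the nuclease Dclre1c (0.34, SE 0.24) and to Rbx1, the RING subunit of cullin ligases (-0.39, SE 0.19).

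**Figure D4:**
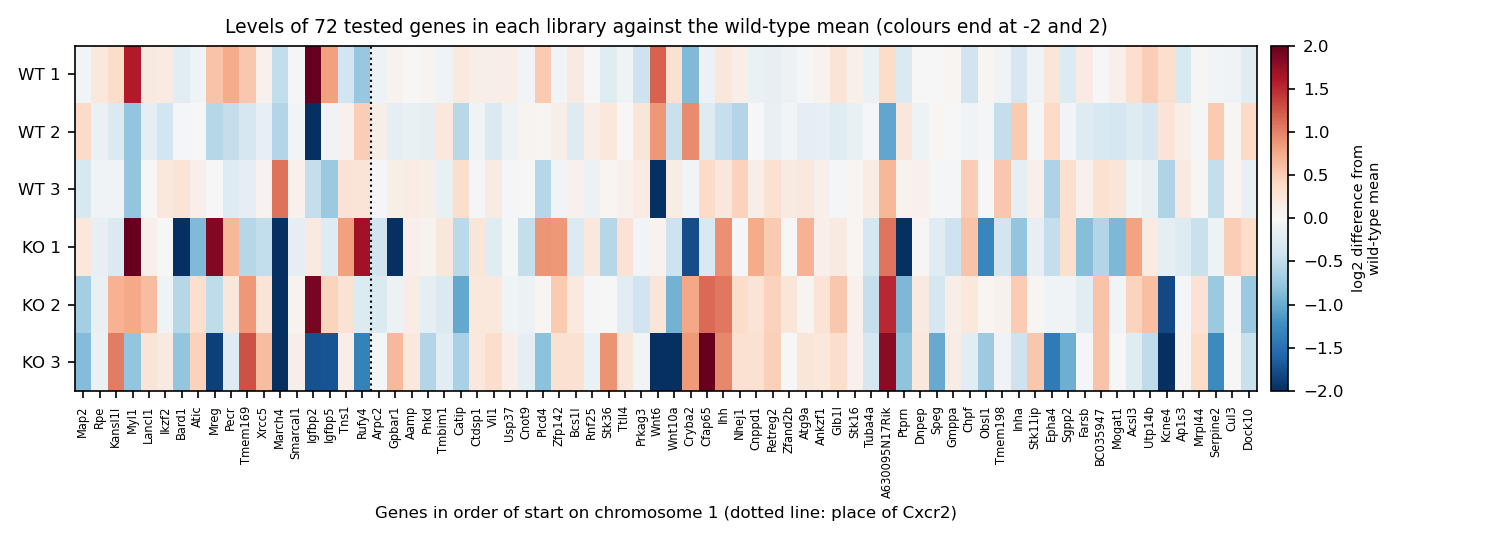
Difference of each of the 72 tested members from its wild-type mean on the log2 scale (colour, ending at -2 and 2) in the 6 libraries (rows; WT, wild type; KO, labelled knockout), with genes in order of start and a dotted line at the place of Cxcr2. Ihh, Cnppd1 and Retreg2 are higher in all 3 labelled knockouts, and most other columns differ among those 3 libraries.

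The 3 labelled knockouts differed from one another at these genes. Library 1 had the highest or lowest value of all 6 for 39 of the 72 members (54.2%), library 3 for 31 and library 2 for 13, while among wild type library 2 did so for 31. With a mean of at least 50, the share for labelled-knockout library 1 was 55.0% of members and 61.8% of all genes. Leaving that library out changed the count of separated members more than that of other genes. The groups then did not overlap for 36 of the 72 members (21 higher, 15 lower), against 32.0% of all genes, 34.6% of protein-coding genes and 32.4% of those elsewhere on chromosome 1. At an unadjusted p under 0.05 there were then 20 members, 27.8%, against 13.6% of all genes, 15.6% of protein-coding genes and 16.8% of those elsewhere on chromosome 1, and limma still called 0 members and 0.0279% of all genes. Neither difference in share was tested, and with fewer labelled knockouts fewer values have to be separated. For the other libraries the shares stayed nearer to those of all genes. They were 29.2% of members and 24.8% of all genes without wild-type library 1, 18 of 72 and 22.4% without library 2 and 31.9% and 30.3% without library 3. They were again 18 of 72, beside 28.6%, without labelled-knockout library 2, and 22.2% and 28.5% without library 3.

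The members separated without labelled-knockout library 1 lay at all distances from Cxcr2. They were 9 of 17 within 0.5 Mb, 13 of 28 from 0.5 to 1.5 Mb, 5 of 9 from 1.5 to 4 Mb and 9 of 18 beyond 4 Mb. The share separated without that library was 32.0% of all genes and 34.6% of protein-coding genes. The medians of the 4 bins lay between -0.013 and 0.10. Those of smallest p were Kcne4 (-2.29, SE 0.46, limma adjusted p = 0.175), Ihh (1.01, SE 0.22, limma adjusted p = 0.188) and Kansl1l (0.86, SE 0.21, limma adjusted p = 0.215). Xrcc5, Atic and Mrpl44 were among the members whose libraries 2 and 3 lay above wild type and library 1 below it.

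**Figure D5:**
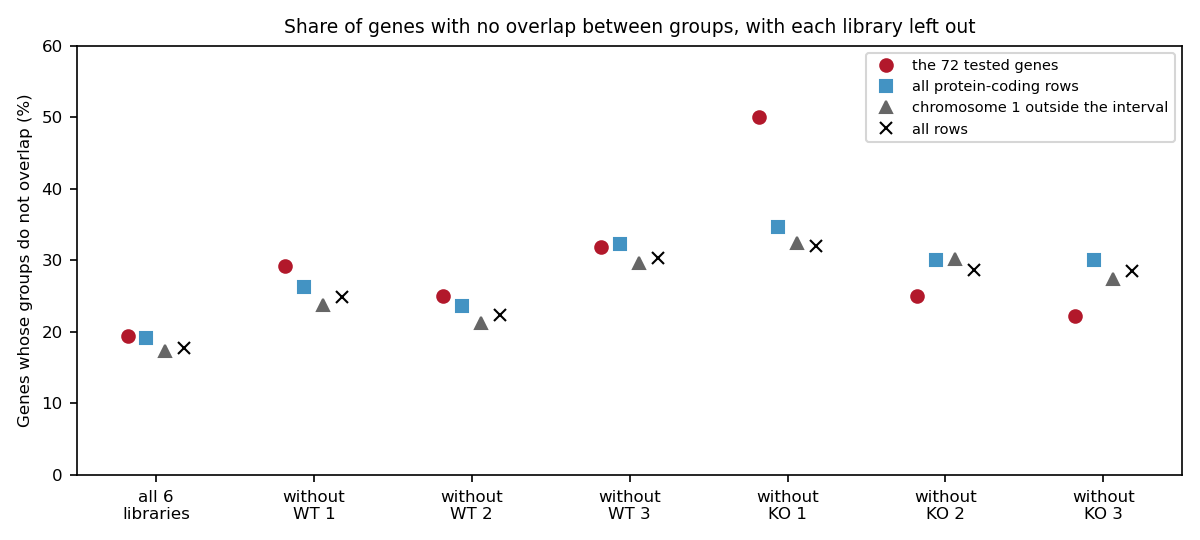
Percentage of genes whose groups do not overlap (y axis) with all 6 libraries and with each library left out (x axis; WT, wild type; KO, labelled knockout), for the 72 tested members, all protein-coding genes, protein-coding genes elsewhere on chromosome 1 and all genes. The members lie near the other sets (19.4% against 17.7% of all genes), except without labelled-knockout library 1 (36 of 72 against 32.0%).

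The limits of the interval were set by the rule that chose the genes. Just inside its lower end, Map2 had a log2 fold change of -0.45. The nearest tested protein-coding gene below the interval was Pth2r, a parathyroid hormone receptor, with 1, 0 and 0 reads in wild type and 0, 3 and 11 in labelled knockout. Next came Pikfyve, a phosphoinositide kinase (0.23, SE 0.18), and Idh1, the cytosolic isocitrate dehydrogenase (-0.55, SE 0.27). Just inside the upper end Dock10 had one of -0.27, and the nearest genes outside were Irs1, an adaptor of the insulin receptor (0.76, SE 0.57), Rhbdd1, an intramembrane protease (-0.019, SE 0.24), and Col4a4, a basement membrane collagen (0.55, SE 0.21). Of these, Col4a4 had higher values in all 3 labelled knockouts (4750, 3456 and 2708 against 2243 to 2572), with a limma adjusted p of 0.458.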

How the data were processed

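RNA sequencing of kidney gave 6 libraries, grouped by the genotype in the labels. What the authors deposited is a normalized signal: each gene's reads over a size factor that is constant within a library. This was read from the values, 100% of which were whole multiples of the library's step within 0.001 reads, and the whole reads were recovered. The build was mm10, per the submitters' processing notes. Aligner, counter, strand setting and library kit: not given in the sources used here. Depth was 15518083 to 20356601 recovered reads per library.

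Genes averaging at least 1 were tested by limma 3.58.1 on log2(value + 1), with its trend and robust settings. The planned choice for raw counts did not apply. Fits ran over the whole table, with Benjamini-Hochberg adjustment over all genes, two-sided, at 0.05. Adding 1 shrinks the changes of low genes, but the values given are not always the smaller ones. For March4 limma gave -2.73 and DESeq2 -4.57, while for Ptprn limma gave -1.57 and DESeq2 -1.31. An exact permutation of 3 libraries against 3 cannot go below 0.1. The 13 alternatives were edgeR 4.0.16 and DESeq2 1.42.0 on recovered reads, TMM scaling, a pseudocount of 0.1, a minimum mean of 10, no filter, a replicate block and leaving out each library (R 4.3.3). All tests were tried on simulated counts, with log2 changes of at least 1 planted only in genes averaging at least 50. No library was set apart from its group there. The trial thus does not cover smaller changes, lower genes or a library like labelled-knockout library 1.

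Named members were those within 0.3 Mb of Cxcr2, those with no overlap between groups and a mean of at least 20, the 3 of smallest p in each role, the 5 of highest mean, and Atg9a and Retreg2. Other members named were chosen after their values were seen. The members and lists were chosen with earlier results of these data known. The deposited tables replace 11 symbols by dates, and March4 was matched by its identifier. Of the members, 29 share at least 100 bases at 95% identity or more with another gene by blastn 2.17.0, and their counts are uncertain.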

Additional observations from a re-analysis of the deposited data

How the results depend on the processing

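No alternative made limma or edgeR call a member, and DESeq2 called 1, Ihh (log2 fold change 0.95, DESeq2 adjusted p = 0.0196, with adjusted p up to 0.945 over the other alternatives). Over the limma fits the members' median log2 fold change lay between -0.029 (wild-type library 2 left out) and 0.034 (labelled-knockout library 1 left out). The sign of this median is thus not determined. The members' median was 0.080 with edgeR and 0.082 with DESeq2, where the median of all genes was 0.028 and 0.043. With each library left out, the members whose groups did not overlap numbered 16 to 36, the largest being 36 without labelled-knockout library 1, followed by 23 without wild-type library 3. Those at an unadjusted p under 0.05 numbered 2 (without wild-type library 2) to 20 (without labelled-knockout library 1). Of the 32 members named by the rule, 25 kept the sign of their fold change in every alternative that gave them a value (11 of the 13 for March4, all 13 for the rest), and 7 changed it in at least 1: Rufy4, Gpbar1, Tmbim1, Vil1, Nhej1, Xrcc5 and Igfbp5. Between libraries of the same replicate number, the correlations of deviations from the group mean were 0.067, -0.15 and 0.12. With 3 libraries a group these cannot show whether the libraries were paired. With a replicate block 0 members were called, 8 had an unadjusted p under 0.05, and 16 of all genes were called. Members under about 50 normalized counts rest on few reads, and with 3 libraries a group, differences the size of the SEs given cannot be resolved.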

Other observations

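Among the 14 protein-coding genes of the interval that were set aside by name, Slc23a3, an orphan member of the ascorbate transporter family that lies between Nhej1 and Cnppd1, had higher values in every labelled knockout. It stood at 111, 48.1 and 147 normalized counts in wild type and 243, 175 and 178 in labelled knockout, which is 1.08 on the log2 scale (SE 0.41, limma adjusted p = 0.452). With it, 4 genes of this stretch, namely Ihh, Slc23a3, Cnppd1 and Retreg2, had no overlap between groups and higher values in the labelled knockouts, while Nhej1 between them overlapped. Slc23a3 and this run of genes were chosen after their values were seen.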
